A study of Mus musculus with 6 samples.

Results

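The genes described here encode macrophage cytokines of the IL-6, IL-10, IL-12 and IL-15 groups. They are *Il6*, *Lif*, *Il10*, *Il12a*, *Il12b*, *Il23a*, *Il27*, *Ebi3*, *Il15* and the receptor gene *Il15ra*, and were taken by symbol from the table of read counts. All 10 were listed among its 55453 genes, and 7 of them had enough reads to be tested. The 10 are called the cytokine genes below, with *Il15ra* counted among them. The libraries came from bone marrow-derived macrophages (BMDM) of C57BL/6 mice, 3 labelled PP2A KO and 3 labelled Wild Type, with replicate numbers 1, 2 and 3 in each. The PP2Ac KO mice were *LysM-cre* PP2Ac fl/fl, in which *cre* under the lysozyme 2 promoter removes exon 1 of *Ppp2ca*, the gene of the catalytic subunit of protein phosphatase 2A (PP2A), from the myeloid lineage. The PP2Ac WT mice were C57BL/6 animals from a supplier and not floxed littermates, so the *cre* and floxed alleles and the colony came with the genotype and cannot be told apart from it. Macrophages were grown with M-CSF or with medium from L929 fibroblasts. The study describes its RNA-Seq of BMDM as made after treatment with cGAMP, the cyclic dinucleotide that activates STING. Its legend names a single dose and a single time of treatment, so that no course over time was measured. The labels name no treatment, age or sex, and no untreated library was analysed here, so that induction of the genes by cGAMP was not measured.

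IL-6 and LIF signal through receptors that share the chain gp130, and both activate STAT3. IL-10, which also acts through STAT3, restrains inflammatory gene expression in macrophages. The IL-12 group consists of heterodimers. *Il12a* and *Il12b* encode IL-12, *Il23a* and *Il12b* encode IL-23, and *Il27* and *Ebi3* encode IL-27. IL-15 is bound by IL-15 receptor α on the cell that makes it and presented to neighboring T and NK cells that carry the β and common γ chains. In macrophages, NF-κB, AP-1, C/EBP and IRF factors are known to act at these genes, and RNA-binding proteins such as tristetraprolin shorten the life of several of their mRNAs.

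Sequences upstream of the start site were available for 6 of the 10 genes, and those of 4 genes that were tested are shown because *Il6*, *Il15ra* and *Ebi3* rose together in PP2Ac KO while *Lif* did not. Each line holds the 250 bases before a RefSeq start site on the forward strand of GRCm38.p6. Capitals mark matches, on either strand, to GGG and CC parted by 5 bases of any kind (NF-κB), GAAA followed by GAAA after 2 bases of any kind (ISRE), AANNGAAA (IRF core), TTCNNNGAA (GAS), TGANTCA (AP-1), TTGCNNAA (C/EBP) or TGACGTCA (CRE). The IRF core lies within the ISRE, and matches of NF-κB on opposite strands can overlap. The windows are chr5:30012864-30013113 for *Il6*, chr2:11705462-11705711 for the downstream of the 2 start sites of *Il15ra*, chr17:55952373-55952622 for *Ebi3* and chr11:4257318-4257567 for *Lif*.
Il6: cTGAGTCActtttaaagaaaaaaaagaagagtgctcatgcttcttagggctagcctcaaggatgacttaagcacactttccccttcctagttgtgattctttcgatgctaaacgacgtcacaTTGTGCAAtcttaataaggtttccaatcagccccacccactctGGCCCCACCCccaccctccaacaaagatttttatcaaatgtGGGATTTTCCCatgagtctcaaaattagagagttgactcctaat
Il15ra: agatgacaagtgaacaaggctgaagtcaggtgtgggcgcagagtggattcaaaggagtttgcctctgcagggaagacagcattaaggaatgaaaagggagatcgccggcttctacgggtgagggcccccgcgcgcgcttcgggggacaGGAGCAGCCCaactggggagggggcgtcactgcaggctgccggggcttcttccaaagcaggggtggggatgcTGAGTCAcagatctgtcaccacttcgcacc
Ebi3: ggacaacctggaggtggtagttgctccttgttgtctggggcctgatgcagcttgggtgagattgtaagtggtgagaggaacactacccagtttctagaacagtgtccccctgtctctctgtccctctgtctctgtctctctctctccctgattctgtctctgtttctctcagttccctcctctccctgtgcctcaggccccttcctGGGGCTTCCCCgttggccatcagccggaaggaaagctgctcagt
Lif: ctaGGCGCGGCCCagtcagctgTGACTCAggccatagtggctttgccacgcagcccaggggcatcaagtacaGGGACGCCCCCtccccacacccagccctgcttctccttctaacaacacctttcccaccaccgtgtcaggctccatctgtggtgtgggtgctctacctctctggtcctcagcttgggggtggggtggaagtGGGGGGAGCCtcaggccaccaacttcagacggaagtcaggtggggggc
In windows that run on to 50 bases past the start site, NF-κB letters were found in each of these 4 genes, but 50.8% of all 32851 such windows hold them. AP-1 letters were found in *Il6*, *Il15ra* and *Lif*, and 7.81% of windows hold them. C/EBP letters were found only in *Il6* of the 4, against 10.8% of windows, and the IRF core only in *Il15ra*, at position 27 after the start site, against 23.9%. ISRE, GAS and CRE letters, held by 3.44%, 8.30% and 1.79% of windows, had no match in the 4 windows. For *Il15ra* these results hold for the downstream start site only. The window of its upstream start site, not shown, had an IRF core match at position -187 and no NF-κB or AP-1 match.

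Library totals ran from 35257156 to 47390899 counts, and 3 counts, taken as the smallest detectable signal, equalled 0.0604 to 0.0909 CPM (counts of a gene per 1000000 counts of the library, scaled by the TMM method). *Ppp2ca* itself had 33 to 47 reads in PP2Ac KO and 8279 to 10654 in PP2Ac WT, so that the targeted gene was low in the libraries labelled KO. The macrophage markers *Adgre1*, *Csf1r*, *Cd68*, *Mertk*, *Fcgr1* and *Itgam* summed to 7286 to 7474 CPM in KO libraries and 6162 to 6794 CPM in WT libraries, with 2 of the 6 higher and 0 lower. Markers of dendritic cells, T and NK cells, B cells and neutrophils were scarce. The 7 dendritic cell markers summed to 2.30 to 3.32 CPM in KO libraries and 1.598 to 2.42 CPM in WT libraries, and *Clec9a* and *Siglech* were higher among the 4 tested. The 6 T and NK cell markers summed to at most 0.212 CPM, with *Cd8a* at 0 in every library. The 4 B cell markers summed to at most 1.56 CPM and the 5 neutrophil markers to at most 0.939 CPM, with *Ly6g* at 0. The part of these cells in the results below was not tested. The 7 fibroblast markers summed to 24.9 to 37.4 CPM in KO libraries against 80.8 to 125 CPM in WT libraries, and all 6 that were tested were lower. As the libraries are bulk samples, fewer cells of a type and less RNA per cell cannot be told apart.

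Of the 7 cytokine genes tested, 6 rose in PP2Ac KO BMDM. *Il10*, *Il27*, *Il15ra*, *Il6*, *Il15* and *Ebi3* had log2 fold changes from 0.73 to 1.73 at FDR under 0.05 in edgeR's quasi-likelihood test. None of the 7 was lower by this test, which used no block. Among all 13680 genes tested, 18.1% were higher and 19.0% lower by the same rule. The median log2 fold change was 1.18 over the 7 genes and -0.02 over all genes. At the stricter limits of log2 fold change over 1 and FDR under 0.01, 4 of the 7 genes were higher (*Il10*, *Il27*, *Il15ra* and *Il6*), against 3.36% of all genes. None was lower by the matching limits, against 2.99%. With the replicate number as a block, 6 of the 7 were higher and 1 lower, where 24.4% and 26.4% of all genes were. In each of the 6 genes, the 3 PP2Ac KO libraries lay above the 3 PP2Ac WT libraries, a pattern found in 24.0% of all genes tested. The 3 genes not tested, *Il12a*, *Il12b* and *Il23a*, had at most 5 reads in any library.

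**Figure D1:**
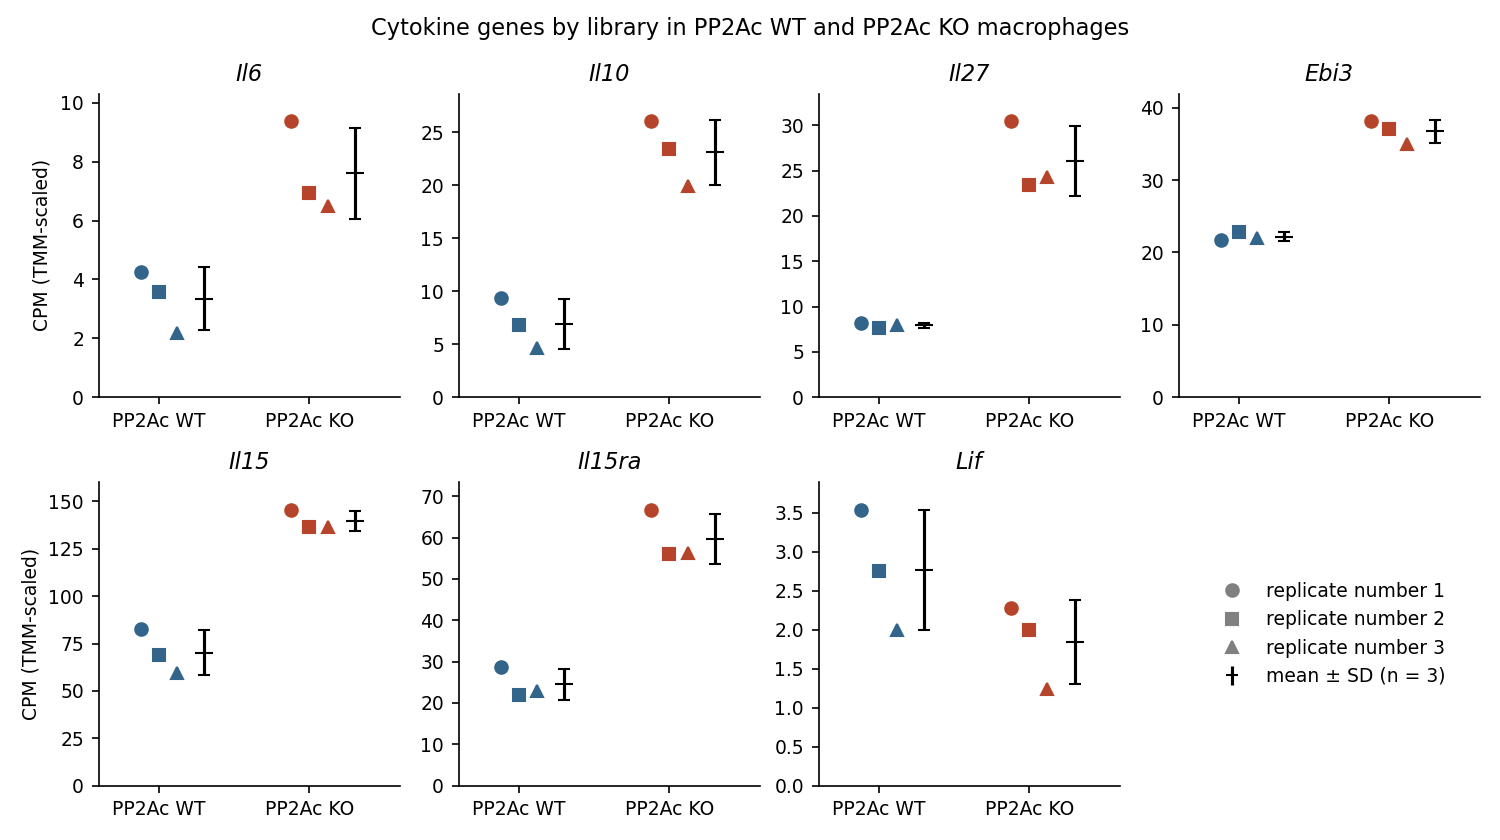
Expression of the 7 tested cytokine genes in each library, in TMM-scaled CPM on linear axes from 0. Symbols mark the replicate numbers, and bars show the mean ± SD of 3 libraries. The PP2Ac KO libraries lie above all PP2Ac WT libraries for every gene but *Lif*, whose groups overlap between 2.00 and 2.29 CPM.

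*Il6* and *Lif* encode the IL-6 family ligands of the set. *Il6* (ENSMUSG00000025746) lies at chr5:30013114-30019981 on the forward strand of GRCm38 and has up to 5 exons. It had 398, 229 and 271 reads in PP2Ac KO replicates 1, 2 and 3, and 212, 156 and 91 reads in PP2Ac WT. After scaling, the highest WT library (4.27 CPM) was below the lowest KO library (6.49 CPM). KO libraries averaged 7.60 ± 1.56 CPM and WT libraries 3.342 ± 1.07 CPM (SD, n = 3). The difference on the log2 scale came to 1.18 (SE 0.23, edgeR adjusted p = 0.00342), or 2.26-fold. The WT libraries spread over 1.97 times from lowest to highest, and the 95% interval of the change in *Il6* was wide, from 0.66 to 1.69.

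*Lif* (ENSMUSG00000034394, chr11:4257557-4272514, forward strand) had a lower mean in PP2Ac KO, a difference that did not pass the test. It had 97, 66 and 52 reads in PP2Ac KO and 176, 120 and 84 reads in PP2Ac WT. The scaled values, 1.25 to 2.29 CPM in KO libraries and 2.00 to 3.54 CPM in WT libraries, overlapped, since PP2Ac KO replicate 1 (2.29 CPM) exceeded PP2Ac WT replicate 3 (2.00 CPM). KO libraries averaged 1.84 ± 0.537 CPM and WT libraries 2.77 ± 0.770 CPM (SD, n = 3). The log2 difference of -0.60 (SE 0.26, 95% interval -1.19 to -0.01) had an edgeR adjusted p = 0.104. Within replicate numbers 1, 2 and 3, *Lif* was lower in PP2Ac KO by 0.63, 0.46 and 0.68 on the log2 scale. Whether the numbers pair the libraries is not known. With the number as a block the call was reached (edgeR adjusted p = 0.00442), as it was without PP2Ac WT replicate 3 (edgeR adjusted p = 0.0319). Fibroblasts also express *Lif*, and the fibroblast markers were lower in the same libraries. *Col1a1*, *Col1a2*, *Col3a1*, *Dcn*, *Pdgfra* and *Pdgfrb* had log2 fold changes from -2.10 to -1.14, and *Lum* had at most 6 reads. None of the 7 was at 0 throughout. Their part in the difference of *Lif* was not tested.

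*Il10* and *Il27* had the largest fold changes of the 7 cytokine genes tested. *Il10* (ENSMUSG00000016529, chr1:131019845-131024974, forward strand, 5 exons) had 1106, 773 and 831 reads in PP2Ac KO and 463, 296 and 195 reads in PP2Ac WT. All PP2Ac KO libraries, at 19.9 to 26.1 CPM, exceeded the highest WT library, at 9.32 CPM. The means were 23.1 ± 3.09 CPM and 6.93 ± 2.34 CPM (SD, n = 3), and the difference on the log2 scale came to 1.73 (SE 0.21, edgeR adjusted p = 3.10e-04), or 3.32-fold. As with *Il6*, the WT libraries differed among themselves, by 2.00 times from lowest to highest, and in both genes replicate 1 was the highest and replicate 3 the lowest of each genotype.

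Both subunits of IL-27 rose. *Il27* (ENSMUSG00000044701, chr7:126589010-126594941, reverse strand, 5 exons), the gene of the subunit particular to this cytokine, had 1292, 771 and 1015 reads in PP2Ac KO and 407, 333 and 335 reads in PP2Ac WT. WT libraries were close together, at 7.66 to 8.19 CPM, and KO libraries ran from 23.4 to 30.5 CPM. The means were 26.0 ± 3.85 CPM and 7.95 ± 0.271 CPM (SD, n = 3). The difference on the log2 scale came to 1.71 (SE 0.11, edgeR adjusted p = 3.90e-05), or 3.28-fold. *Ebi3* (ENSMUSG00000003206, chr17:55952640-55957022, forward strand, 5 exons), the gene of the partner chain, had 1618, 1224 and 1457 reads in PP2Ac KO and 1081, 993 and 921 reads in PP2Ac WT. Its libraries hardly varied within a genotype, by 1.09 times in PP2Ac KO and 1.05 times in PP2Ac WT from lowest to highest. Means were 36.7 ± 1.64 CPM and 22.2 ± 0.568 CPM (SD, n = 3), which is a log2 difference of 0.73 (SE 0.06, edgeR adjusted p = 8.21e-05), or 1.65-fold.

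The log2 ratio of *Ebi3* to *Il27* reads was 0.324, 0.666 and 0.521 in PP2Ac KO and 1.41, 1.57 and 1.46 in PP2Ac WT. It was lower in every KO library, by 0.98 on average, and an exact permutation test gave p = 0.1 (two-sided, adjusted over 2 ratios 0.1), the smallest value that 3 against 3 libraries allow. Exons of *Il27* share 103 bases (10.1%) with *Apobr* on the opposite strand, and those of *Ebi3* share 270 bases (23.4%) with *Gm16712*. *Apobr* held 7646 to 10287 reads in each library, with a log2 difference of 0.23, and *Gm16712* had 9 to 19 reads. The libraries were strand-specific, but the strand setting of the counting is not given in the sources used here, so that reads on the shared bases of *Il27* and *Apobr* may not have been told apart.

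Reads on the other subunits of the IL-12 group were nearly absent. *Il12a* (ENSMUSG00000027776, chr3:68690644-68698547) and *Il23a* (ENSMUSG00000025383, chr10:128296139-128298752) had 0 reads in all 6 libraries, which allows at most 0.0604 to 0.0909 CPM per library, for counting error only. *Il12b* (ENSMUSG00000004296, chr11:44400063-44414033), the subunit that IL-12 and IL-23 share, had 5, 1 and 4 reads in PP2Ac KO and 3, 2 and 1 reads in PP2Ac WT. A difference in these genes was not detectable at this depth, and no ratio of *Il12b* to its partners was computed. Of the IL-12 group, *Il27* and *Ebi3* were thus the transcripts that could be measured in these cultures.

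*Il15* and *Il15ra*, which encode a cytokine and the chain that presents it, rose together. *Il15* (ENSMUSG00000031712, chr8:82331632-82403222, reverse strand, up to 8 exons) had the most reads of the set, with 6180, 4513 and 5692 in PP2Ac KO and 4098, 2998 and 2483 in PP2Ac WT. KO libraries held 136 to 146 CPM and WT libraries 59.2 to 82.5 CPM. Means were 140 ± 5.27 CPM and 70.2 ± 11.7 CPM (SD, n = 3), which is a log2 difference of 0.99 (SE 0.11, edgeR adjusted p = 2.09e-04), or 1.99-fold. *Il15ra* (ENSMUSG00000023206, chr2:11705290-11734317, forward strand, up to 7 exons) had 2833, 1852 and 2347 reads in PP2Ac KO and 1431, 949 and 957 reads in PP2Ac WT. Here too the KO libraries, at 56.1 to 66.8 CPM, stood above the WT libraries, at 21.8 to 28.8 CPM. Means were 59.7 ± 6.12 CPM and 24.5 ± 3.78 CPM (SD, n = 3), and the difference on the log2 scale came to 1.28 (SE 0.11, edgeR adjusted p = 9.17e-05), or 2.44-fold.

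The log2 ratio of *Il15ra* to *Il15* reads was higher in PP2Ac KO by 0.29, and its libraries did not overlap between groups (-1.28 to -1.13 in PP2Ac KO and -1.66 to -1.38 in PP2Ac WT). The exact permutation test again gave p = 0.1 (two-sided, adjusted 0.1), the smallest value possible. GENCODE M21 lists 4 coding transcripts for *Il15* and 11 for *Il15ra*, and the table, with 1 count per gene, does not separate them.

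For levels to be compared between genes, CPM were divided by the length of a gene's exons in kilobases. In PP2Ac WT, the order was *Il15* (31.1 CPM per kilobase), *Ebi3* (19.2), *Il27* (7.78), *Il15ra* (5.51), *Il10* (5.29), *Il6* (1.38), *Lif* (0.636) and *Il12b* (0.0221). *Il15ra* and *Il10* overlapped between libraries, and the other neighbors with reads did not. In PP2Ac KO, *Il10* (17.7 CPM per kilobase) stood above *Il15ra* (13.4), with no overlap, and the rest kept their places. *Il15* was at 61.7, *Ebi3* at 31.8, *Il27* at 25.5, *Il6* at 3.13, *Lif* at 0.424 and *Il12b* at 0.0414 CPM per kilobase. The level of *Il27* thus came close to that of *Ebi3* in PP2Ac KO, at 22.9 to 29.8 against 30.3 to 33.0 CPM per kilobase, where in PP2Ac WT it was at 7.499 to 8.02 against 18.9 to 19.8. The length counts every annotated exon, which lowers the values of genes with many transcripts such as *Il15ra*.

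**Figure D2:**
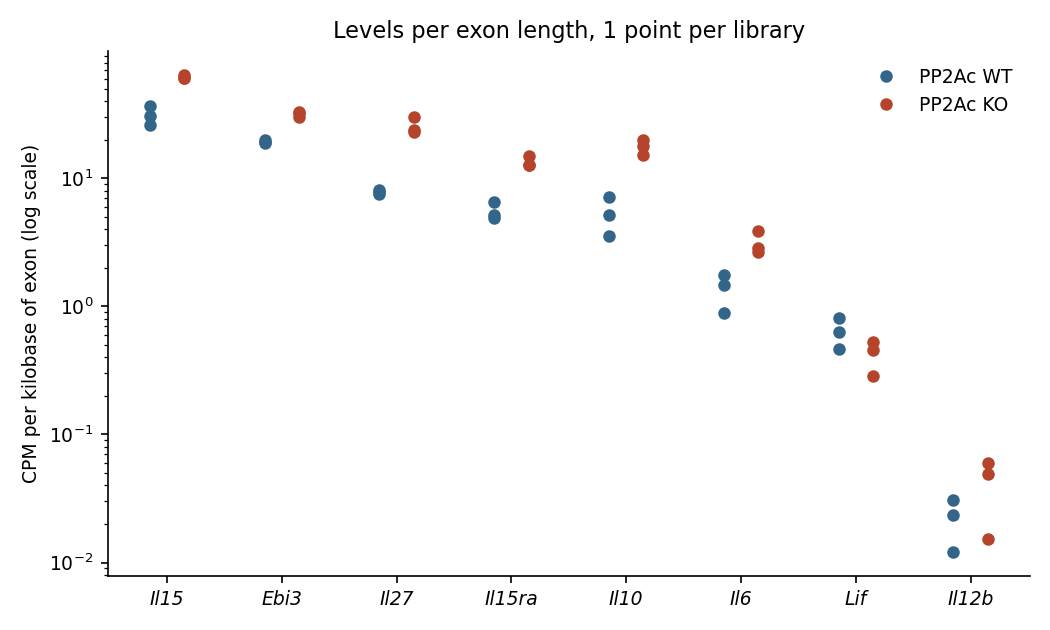
CPM per kilobase of exon on a log scale for the 8 cytokine genes with reads, ordered by their mean in PP2Ac WT, with 1 point per library. *Il15* was highest in both genotypes, and *Il12b* lay at or below 0.0599 CPM per kilobase. *Il12a* and *Il23a*, at 0 in every library, are not drawn.

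Genes with the most similar profiles were found by the Euclidean distance between mean-centered log2 CPM over the 6 libraries. Closest to *Il6* were *Nr4a3* and *Nap1l2* (distances 0.138 and 0.270), closest to *Il10* were *Cysltr2* and *Misp* (0.120 and 0.164), and closest to *Il27* were *Nlrp3* and *Tnfsf9* (0.218 and 0.256). *Relb* and *Vasp* were closest to *Ebi3* (0.0899 and 0.0963), *Themis2* and *Ms4a6c* to *Il15* (0.0702 and 0.0832), and *Tnfaip3* and *Ccl5* to *Il15ra* (0.134 and 0.143). For *Lif* they were *Msrb3* and *Rhebl1* (0.243 and 0.275), which did not pass the test either. The distance takes in the difference between genotypes as well as the spread within them, and the 6 libraries are the same ones in which the genotypes were compared.

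Most other ligands of the same families had few reads or none. Of 17 listed, 8 had 0 reads in every library, among them *Il4*, *Il21*, *Il22* and the λ interferons *Ifnl2* and *Ifnl3*, and 4 were tested. *Osm*, which encodes oncostatin M, a macrophage product that signals through gp130, rose from 19.6 ± 3.44 to 31.5 ± 3.42 CPM (SD, n = 3), which is a log2 difference of 0.68 (SE 0.13, edgeR adjusted p = 0.00312). *Il7* had 57, 44 and 45 reads in PP2Ac KO and 51, 29 and 18 in PP2Ac WT (log2 difference 0.80, edgeR adjusted p = 0.0594, and 0.0140 with the replicate block). *Clcf1* had a log2 fold change of -0.24 (edgeR adjusted p = 0.353). *Il11*, under the filter on low counts, had 5, 0 and 0 reads in PP2Ac KO and 11, 9 and 7 reads in PP2Ac WT. *Il11* is, like *Lif*, a known product of stromal cells, and the lower fibroblast markers given above moved with it, whose part was not tested.

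The receptor chains for these cytokines other than *Il15ra*, which is counted above, moved unevenly. Of the 9 tested among 11 listed, 3 rose, 1 fell and 5 did not pass the test, and the median log2 fold change was 0.09. *Il12rb1*, the chain shared by the IL-12 and IL-23 receptors, rose from 29, 12 and 11 reads in PP2Ac WT to 86, 60 and 79 reads in PP2Ac KO. The difference on the log2 scale came to 2.32 (SE 0.28, edgeR adjusted p = 3.30e-04), with no overlap between groups. *Il2rg*, the common γ chain used by IL-15, rose from 28.9 ± 2.93 to 67.1 ± 4.23 CPM (SD, n = 3; log2 difference 1.21, edgeR adjusted p = 5.40e-05). *Il10ra*, the ligand-binding chain for IL-10, rose from 305.8 ± 32.7 to 435 ± 27.6 CPM (SD, n = 3; log2 difference 0.51, edgeR adjusted p = 0.00222).

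*Il27ra*, the chain particular to the IL-27 receptor, fell from 69, 80 and 56 reads in PP2Ac WT to 30, 33 and 44 in PP2Ac KO (log2 difference -0.73, SE 0.22, edgeR adjusted p = 0.0295). This call was lost without PP2Ac KO replicate 1 or 2 or PP2Ac WT replicate 2. The chains for IL-6 had small differences, -0.01 for *Il6ra* (95% interval -0.15 to 0.12) and 0.08 for *Il6st*, which encodes gp130 (95% interval -0.14 to 0.31). *Il10rb* had 0.09, *Lifr* -0.23 and *Il12rb2* 0.26 (adjusted p = 0.228, 0.349 and 0.125 from edgeR, and 0.0225 for *Il12rb2* with the replicate block). *Il2rb*, the β chain that IL-15 uses, had 3 to 11 reads per library, and *Il23r* had at most 6.

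**Figure D3:**
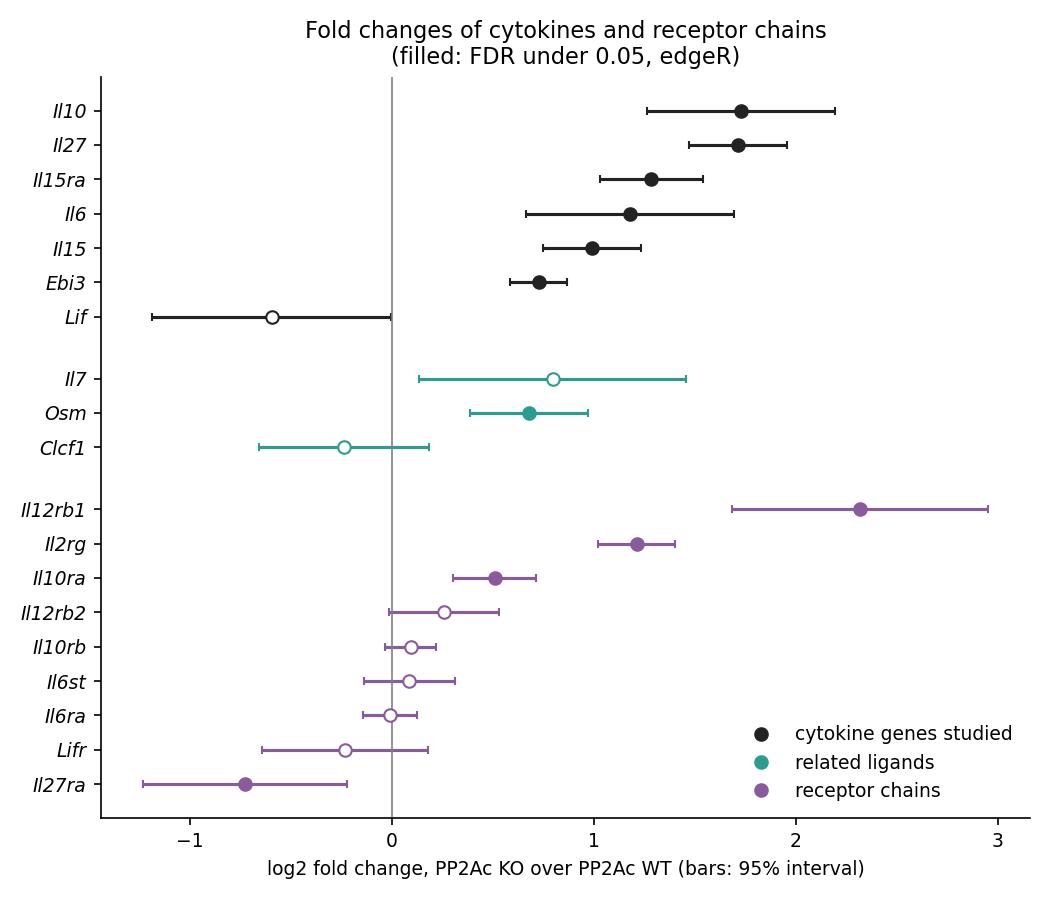
Log2 fold changes of PP2Ac KO over PP2Ac WT with 95% intervals for the tested cytokine genes, 3 related ligands (*Osm*, *Il7* and *Clcf1*) and the tested receptor chains. Filled points passed FDR under 0.05 in edgeR. Of the cytokine genes, 6 lie to the right of 0 with intervals that exclude it, while the receptor chains lie from -0.73 for *Il27ra* to 2.32 for *Il12rb1*.

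Of 12 genes for the kinases, STAT factors and inhibitors that these receptors use, 9 rose and 0 fell, with a median log2 fold change of 0.67. *Socs3*, the inhibitor of signaling through gp130 that IL-6 and IL-10 both induce, rose from 19.5 ± 1.72 to 52.9 ± 9.60 CPM (SD, n = 3), which is a log2 difference of 1.44 (SE 0.12, edgeR adjusted p = 8.21e-05). *Jak2* and *Cish* followed with 1.18 and 1.05, and *Stat3* had 0.63. *Jak1*, *Stat4* and *Stat5a* did not pass the test (0.14, 0.33 and -0.06), although *Jak1* and *Stat4* did with the replicate block (edgeR adjusted p = 0.0176 and 0.0171).

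Of 25 genes for transcription factors known to act at cytokine genes in macrophages, 20 rose and 0 fell, with a median of 0.48. The largest log2 fold changes were 1.53 for *Irf7*, 1.40 for *Batf2*, 1.34 for *Junb*, an AP-1 subunit, and 1.09 for *Bcl3*, an atypical IκB protein (adjusted p = 9.07e-05, 5.40e-05, 3.90e-05 and 8.39e-05 from edgeR). Those that did not pass were *Irf3* (-0.05), *Batf* (-0.33), *Batf3* (0.33), *Nfil3* (0.30, edgeR adjusted p = 0.00923 with the replicate block) and *Prdm1* (0.01).

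Of 10 genes for proteins that bind or cut cytokine mRNA, 7 rose and 0 fell, with a median of 0.29. *Zfp36*, which encodes tristetraprolin, rose from 364.8 ± 11.6 to 663 ± 21.1 CPM (SD, n = 3), which is a log2 difference of 0.86 (SE 0.06, edgeR adjusted p = 5.51e-05). *Zc3h12a*, which encodes the nuclease regnase-1 that cleaves *Il6* mRNA, had 0.67, and *Arid5a*, whose protein stabilizes it, 0.59. *Zfp36l1* had 0.40, and *Rc3h1*, *Rc3h2* and *Khsrp* did not pass the test (-0.05, 0.12 and -0.10), except *Rc3h2* with the replicate block (edgeR adjusted p = 0.0292). On the totals of the libraries without TMM factors, where the median of all genes was -0.24, 3 genes of this list were higher and 2 lower. These lists were chosen with earlier results of these data known, and their counts describe these libraries beside the 18.1% of all genes that were higher.

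**Figure D4:**
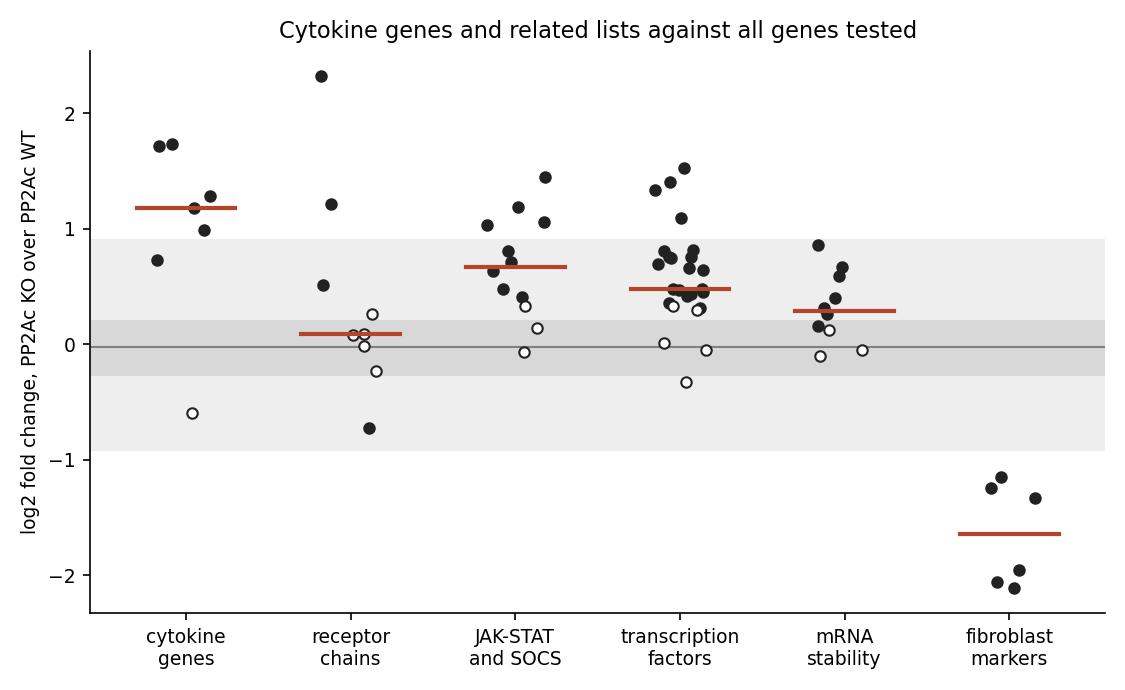
Log2 fold changes of PP2Ac KO over PP2Ac WT for the tested genes of 6 lists, 1 point per gene, filled at FDR under 0.05, with the median of each list as a red line. The gray bands hold the middle 50% and 90% of all 13680 genes tested, and the gray line is their median of -0.02. All 6 cytokine genes that rose lie above the inner band, and the fibroblast markers lie below the outer one.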

How the data were processed

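Poly(A) RNA of 3 PP2Ac KO and 3 PP2Ac WT libraries of BMDM was sequenced with a directional kit. The authors deposited whole-number counts of reads per gene, without normalization. The submitters' processing notes name fastp 0.20.0, STAR 2.7.1a, HTSeq 0.11.2, kallisto 0.46.1, edgeR 3.34.0, limma 3.48.3 and the build mm10/GRCm38, not which made the table. Annotation release and strand setting are not given in the sources used here. Library totals were 35257156 to 47390899 counts.

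Genes passing filterByExpr (10 counts, 15 in total) were scaled by TMM and compared between genotypes with edgeR 4.0.16 (glmQLFTest, R 4.3.3), adjusting by Benjamini-Hochberg over 13680 genes. FDR under 0.05 passed, and the limits in the study's legend served as a stricter rule. The SE is the log2 fold change over the square root of F. Positions came from GENCODE M21 and upstream sequences from RefSeq (GRCm38.p6). The IRF core was added to the motifs after the sequences were seen.

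The study describes replicates of its cell experiments in general as biological, but the sources used here do not say whether these libraries came from separate mice or cultures, so p-values measure the spread between these libraries. Deviations of same-numbered libraries from their group means correlated across genes (0.249, 0.123 and 0.310 for numbers 1, 2 and 3). Libraries of unlike number were not compared in this way, so that pairing by number is not established. The numbers, taken from the labels, served as a block in an alternative, and the main test left them out. Libraries of a genotype differed by 9.54 to 46.0 times the variance of counting alone. Alternatives were RLE and upper-quartile scaling, other filters, the block, leaving out each library, DESeq2 1.42.0, limma-voom (limma 3.58.1) and, chosen after the data were seen, library totals alone. The test was run on simulated data first. Genes and lists were chosen with earlier results of these data known. Named were the 10 cytokine genes, related ligands and receptor chains with 10 or more reads in a library, the 4 genes with the largest passing change of each further list, the 2 closest in profile, *Ppp2ca* and the cell markers. Other genes of the lists, *Apobr* and *Gm16712* were named after their values were seen. Results of some list genes are not reported here.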

Additional observations from a re-analysis of the deposited data

How the results depend on the processing

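The 6 cytokine genes that rose did so, at FDR under 0.05, under each of the 14 alternatives to TMM-scaled edgeR with filterByExpr that were run. Their lowest and highest log2 fold changes were 0.95 and 1.40 for *Il6*, 1.52 and 2.01 for *Il10*, 1.496 and 1.79 for *Il27*, 0.51 and 0.76 for *Ebi3*, 0.78 and 1.12 for *Il15*, and 1.07 and 1.42 for *Il15ra*. At the stricter limits the count moved between 3 and 5, and 5 with the replicate block. *Lif* was negative under all 14 (-0.81 to -0.37, adjusted p from 0.00442 to 0.293). It passed without a filter, with the replicate block, on library totals alone and without PP2Ac WT replicate 3, so that the count of cytokine genes that were lower was 1 under each of these in place of 0, and 0 to 1 over the libraries left out.

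Library totals alone moved the median of all genes from -0.02 to -0.24 and the counts over all genes to 1503 higher and 6125 lower, from 2470 and 2604. Under it, 2 receptor chains, 1 JAK-STAT gene, 2 transcription factors and 2 genes for mRNA stability were lower. The number higher was 14 in place of 20 for transcription factors and 3 in place of 7 for mRNA stability. It stayed at 3 for receptor chains and 9 for JAK-STAT genes. Among related ligands, 2 in place of 1 were higher with the replicate block, without a filter, with DESeq2 and with limma-voom (1 to 2 over the libraries left out, with 2 without PP2Ac WT replicate 1). The number lower there was 2 without a filter, 0 with at least 10 counts in every library and 0 to 1 over the libraries left out, as for receptor chains. The ratio of *Ebi3* to *Il27* moved between -1.06 and -0.89 and that of *Il15ra* to *Il15* between 0.22 and 0.36, and within pairs of equal number the differences were -0.98 and 0.29. The replicate block changed no other call on the cytokine genes. Depth limits *Il12a*, *Il12b* and *Il23a*, and the low counts of *Lif*, *Il12rb1* and *Il27ra* leave wide intervals.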
